A study of Homo sapiens with 4 samples.

Results

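miR-221 and miR-222 are a pair of human miRNAs processed from neighbouring hairpins, here described in U-251, an established human glioma cell line. Their members were chosen by name, as every row of the miR-seq table called hsa-miR-221 or hsa-miR-222 with or without an arm, which gave 2 of the 746 names listed, miR-221-5p and miR-222-5p. The data comprised 4 biological replicates of non-irradiated U-251 control cells, which formed 1 group with no contrast. The labels describe wild-type cells given the vehicle DMSO, whereas the text of the paper describes basal conditions, and the labels give an mRNA capture protocol although a miRNA kit appears in the paper's methods. The pair was singled out with its counts and library-to-library ratio already known, so its levels, ranks and ratio are given as a description. The comparisons with counting error and the check for a library standing apart from the rest are read as descriptions as well.

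A miRNA is cut from a hairpin precursor, and 1 of its arms is loaded into AGO2, where bases 2 to 8, the seed, pair with client mRNAs. miR-221 and miR-222 are transcribed together as a polycistron. They are known as regulators of proliferation in glioma and other tumors, where their 3p arms repress CDKN1B, an inhibitor of cyclin-dependent kinases, and KIT, a receptor tyrosine kinase.

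In GRCh38, the same build as the hg38 genome used by the authors, the MIR221 hairpin lies on the minus strand of chromosome X from 45746157 to 45746266. The MIR222 hairpin lies on the same strand from 45747015 to 45747124, 748 bases upstream in the direction of transcription. The GENCODE annotation places both inside the long non-coding gene MIR222HG, which runs from 45745210 to 45770274. Both hairpins are intronic in its transcript MIR222HG-201, between exon 1 (from 45769786) and exon 2 (ending at 45746100). A second transcript, MIR222HG-203, has a single exon that covers 24 of the 110 bases of MIR221, so this hairpin is exonic in part.

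The mature sequences were taken from RefSeq (GRCh38.p14), which listed 674 of the 746 names of the table. They are shown because the seed decides which mRNAs each arm can pair with, and the capitals mark the seed.
miR-221-3p: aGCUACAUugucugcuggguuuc
miR-222-3p: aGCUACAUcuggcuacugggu
miR-222-5p: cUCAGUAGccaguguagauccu
The 3p arms begin with the same 8 bases, and a run of 6 more, CUGGGU, ends miR-222-3p and lies at positions 15 to 20 of miR-221-3p. No other human mature miRNA in the RefSeq list had the seed GCUACAU, and none shared the seed UCAGUAG with miR-222-5p. The seeds of the 5p and 3p arms of miR-222 are therefore different, and the arm that was counted determines which of them a count stands for.

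The hairpins are shown with the mature arms listed by RefSeq in capitals.
MIR221: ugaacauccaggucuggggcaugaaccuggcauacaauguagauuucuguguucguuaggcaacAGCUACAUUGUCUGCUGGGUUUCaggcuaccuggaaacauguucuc
MIR222: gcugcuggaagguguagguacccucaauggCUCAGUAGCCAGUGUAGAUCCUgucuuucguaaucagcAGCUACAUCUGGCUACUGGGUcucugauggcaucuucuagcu
Both hairpins have 110 bases, against a median of 85 over the 263 hairpins of the miRNAs detected here. The GC content was 47.3% for MIR221 and 50.9% for MIR222, on either side of the median of 48.1%. Folded with RNAfold, MIR222 reached a minimum free energy of -53.8 kcal/mol and MIR221 one of -46.5 kcal/mol, the 31st and 70th lowest of the 263. The energies were not scaled to the length of the hairpins. The longest run found in both hairpins was 9 bases, and the longest run that either shared with any of 672 other hairpins was 11 bases, in MIR221.

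The table as analysed here named the 5p arm for each member, with no row called miR-221-3p or miR-222-3p. This was the rule in the table and not particular to these miRNAs, since 538 names ended in 5p and 18 in 3p, and both arms were named for 12 of 734 miRNAs. Pairs were sought among names ending in 5p with at least 10 counts in every library and a single matched hairpin. For 6 such pairs, RefSeq lists different 5p arms but an identical 3p arm. Pairs outside these limits were not examined. The counts of the names within these pairs differed 1.01-fold to 1.24-fold. miR-103a-2-5p and miR-103a-1-5p, with 418068 and 415880 counts over the 4 libraries, are an example. Neither miR-221-5p nor miR-222-5p belongs to such a pair. Whether reads of the 3p arms were counted under these names was not tested, so each value below is that of the table's name and not of a proven arm.

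Total counts lay between 12363104 and 13214969 per library. Of the 746 names, 621 had counts in at least 1 library and 280 had at least 10 in every library, here called detected. Among markers fixed for glial and neural cells, miR-9-5p, a miRNA of neural progenitors and glia, held 1.39% ± 0.437 (SD, n = 4) of the counts, whereas miR-219a-5p held 0.000279%. Of the markers listed for neurons, miR-128-1-5p held 0.202%, miR-129-5p held 0.00101%, and miR-124-5p had no count in any library, which allows up to 2.43e-05% in the smallest one. Of 13 markers of blood, liver, muscle and epithelium, 10 had counts, and together they held 0.0161% to 0.0274% of a library. The highest of them was the erythroid marker miR-486-5p, with a mean share of 0.0178%. The other erythroid markers, miR-144-5p and miR-451a, were at 1.21e-05% and 0. The 13 include miR-223 and miR-206, which were not analysed here.

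miR-221-5p was abundant in U-251 cells. Replicates 1 to 4 gave 261212, 386501, 299796 and 255206 counts of it. These were 2.08%, 2.92%, 2.42% and 2.00% of the counts of the respective library. The 95% Wilson intervals, which cover counting error only, were no wider than the 2.92% to 2.93% found in replicate 2. Replicate 2 was therefore the highest and replicates 1 and 4 were the lowest, beyond what counting error allows. The mean share was 2.36% ± 0.420 (SD, n = 4), and miR-221-5p stood at rank 10 by summed count. Within the single libraries, in the same order, it held ranks 10, 5, 7 and 11.

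miR-222-5p was about an order of magnitude less frequent. Its counts in replicates 1 to 4 were 28309, 40029, 34000 and 28765. The shares were 0.226%, 0.303%, 0.275% and 0.226%, with 95% Wilson intervals of 0.223% to 0.228% in replicate 1 and 0.300% to 0.306% in replicate 2. The libraries with high miR-221-5p were thus also high in miR-222-5p, with replicate 2 first and replicate 3 next. The mean share was 0.257% ± 0.0383 (SD, n = 4), at rank 39 by summed count and between ranks 37 and 40 in the single libraries. Together the pair held 2.62% ± 0.457 (SD, n = 4) of all miRNA counts, and miR-221-5p made up 90.2% of this.

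**Figure D1:**
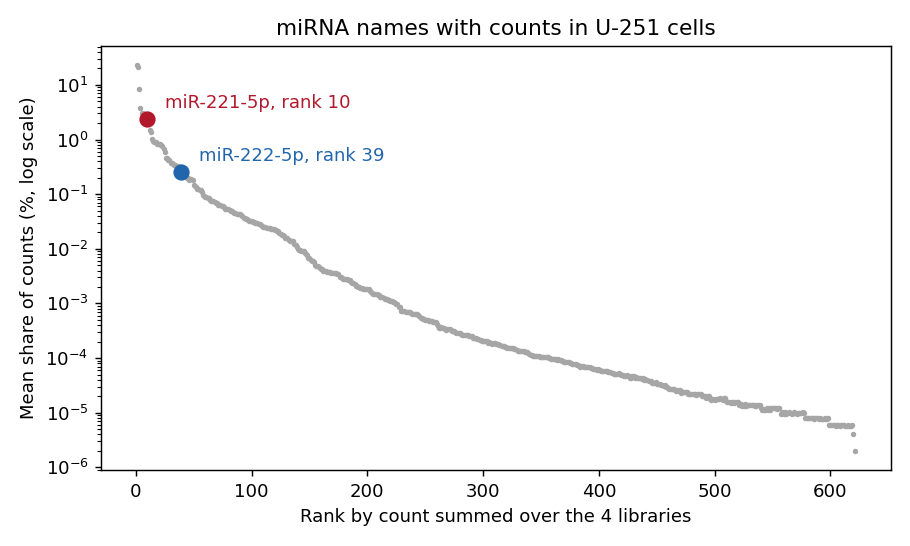
Mean share of the counts over 4 U-251 libraries (log scale) for the 621 miRNA names with counts, ordered by summed count, each point standing for 1 name. miR-221-5p (red) lies at rank 10 with 2.36% and miR-222-5p (blue) at rank 39 with 0.257%.

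The neighbours in the order of levels show how far the rank of each member can be trusted. Just above miR-221-5p stood Let-7e-5p, Let-7c-5p and miR-16-5p, with mean log2 ratios to it of 0.24 ± 0.35, 0.26 ± 0.34 and 0.25 ± 0.47 (SD, n = 4). Each of these differences was smaller than the spread between libraries, and the order was mixed. miR-125a-5p, next below, was lower than miR-221-5p in 3 of 4 libraries (mean log2 ratio -0.11 ± 0.26). By contrast, miR-93-5p at rank 12 was lower in 4 of 4 libraries (mean log2 ratio -0.62 ± 0.15), and so was miR-9-5p at rank 13 (-0.79 ± 0.53). miR-221-5p therefore did not differ beyond the spread from the names at ranks 7 to 11.

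For miR-222-5p, miR-155-5p at rank 36, a miRNA known from immune signaling, was higher in 4 of 4 libraries (mean log2 ratio 0.34 ± 0.13; SD, n = 4). miR-382-5p and miR-127-5p, just above it, differed by 0.10 ± 0.18 and 0.0016 ± 0.34 on the log2 scale, and miR-409-5p and miR-20b-5p, just below it, by -0.21 ± 0.37 and -0.25 ± 0.43. These 4 differences lay within 1 SD. miR-181b-5p at rank 42 was lower in 4 of 4 libraries (mean log2 ratio -0.26 ± 0.19). Over both members, 4 of the 12 neighbours kept their order in every library with a mean beyond 1 SD, and 8 were mixed.

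The ratio of miR-221-5p to miR-222-5p was nearly the same in every library. For each count of miR-222-5p, replicates 1 to 4 gave 9.23, 9.66, 8.82 and 8.87 counts of miR-221-5p. The counting intervals at 95% were 9.11 to 9.34, 9.56 to 9.76, 8.72 to 8.92 and 8.76 to 8.98, in the same order. Replicates 3 and 4 overlapped, whereas replicates 1 and 2 lay above them and apart from each other. The mean ratio was 9.14 ± 0.387 (SD, n = 4), or 3.19 ± 0.0605 on the log2 scale. This SD was 7.15 times the mean counting error of 0.00846, so the ratio was steady but not constant within counting error. It was also much smaller than the spread of either member alone, since the SD of the log2 share was 0.248 for miR-221-5p and 0.213 for miR-222-5p. Without replicate 2, which had the highest ratio, the SD of the log2 ratio was 0.0355. The ratio compares counts of different sequences, and how the library kit captured each of them was not tested.

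**Figure D2:**
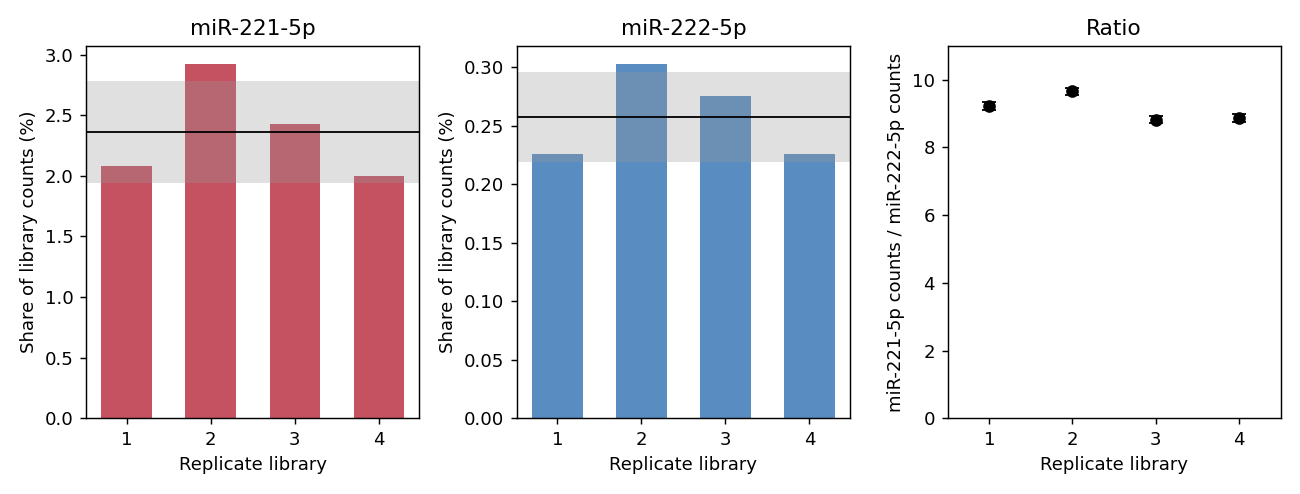
Share of library counts (%, bars) of miR-221-5p and miR-222-5p in 4 replicate libraries with the mean (line) and 1 SD on either side (grey band), and the ratio of their counts with 95% counting intervals (points). Both members are highest in replicate 2, while the ratio stays between 8.82 and 9.66.

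The spread of each member between libraries was unremarkable among the detected miRNAs. The coefficient of variation of the share was 17.8% for miR-221-5p and 14.9% for miR-222-5p, the 120th and 87th lowest of 280, with a median of 20.1%. The share of the highest library was 1.46 times that of the lowest for miR-221-5p and 1.34 times for miR-222-5p. Over all 4 libraries, the spread exceeded counting error 98.4-fold and 27.1-fold, respectively, when expressed as the square root of chi-square per degree of freedom. Counting error takes every count as independent. It was 0.182% of the count for miR-221-5p and 0.552% for the rarer miR-222-5p, so the 2 multiples are not on an equal footing. Neither member had a library that stood apart from the other 3. The gap of the extreme library to its nearest neighbour, divided by the range (Dixon's ratio), was 0.541 for miR-221-5p and 0.361 for miR-222-5p, under the 95% critical value for 4 samples. For comparison, 11.1% of the detected miRNAs exceeded it.

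Which library was the lowest depended on the scaling, in part by narrow margins, whereas the highest did not. Scaled by total counts, replicate 4 was the lowest for both members. For miR-222-5p this was nearly a tie, with 0.2256% in replicate 4 and 0.2257% in replicate 1. With the TMM or upper-quartile factors of edgeR or the size factors of DESeq2, replicate 1 was the lowest for both and replicate 2 remained the highest. With upper-quartile factors, for example, miR-221-5p was 2.02% in replicate 1 and 2.13% in replicate 4, against 2.86% in replicate 2. Replicates 1 and 4 were nearly level for miR-221-5p with TMM factors (2.125% and 2.132%) and with DESeq2 size factors (2.127% and 2.148%). For miR-222-5p they were 0.230% and 0.240% with TMM factors. The Let-7 names took 59.3% of the counts in replicate 1 and 66.2% in replicate 4. With the Let-7 names left out of the total, replicates 1 to 4 gave 5.11%, 7.40%, 6.72% and 5.93% for miR-221-5p. On that scale miR-222-5p was 0.554%, 0.767%, 0.763% and 0.668%, so its replicates 2 and 3 were nearly level. The ratio of the members is not touched by any of these scalings.

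**Figure D3:**
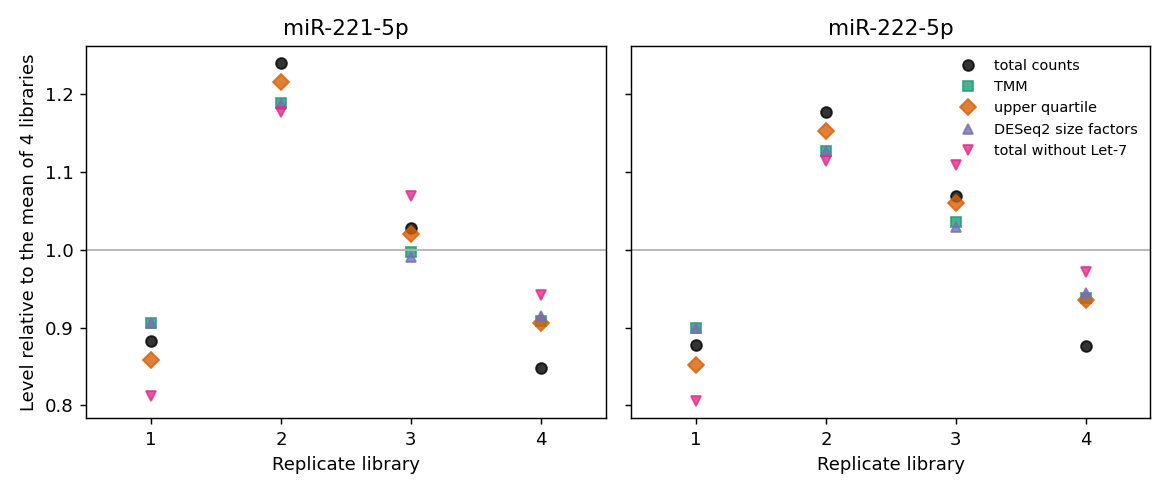
Level of miR-221-5p and miR-222-5p in each replicate library divided by its mean over the 4 libraries, with 5 ways of scaling (symbols). Replicate 2 is the highest under each scaling, while the lowest is replicate 4 with total counts and replicate 1 with the others. Replicates 1 and 4 are nearly level for miR-222-5p with total counts and for miR-221-5p with TMM or DESeq2 factors.

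To place the steadiness of the pair, the SD of the log2 ratio over the 4 libraries was computed between each member and each of the other 279 detected miRNAs, a small SD meaning that the counts moved in parallel. With miR-221-5p as the reference, miR-222-5p had the second smallest SD, 0.0605, against a median of 0.354. The smallest belonged to miR-500a-5p, also encoded on chromosome X, with 0.0558, and miR-412-5p, miR-377-5p and miR-589-5p followed with 0.0685, 0.0934 and 0.0941. These companions were far rarer than miR-221-5p, at mean shares of 0.00342%, 0.00185%, 0.00185% and 0.0245%. They had 1742.5, 944, 943 and 12499 counts over the 4 libraries, against 131103 for miR-222-5p. Their ratios therefore carry more counting error, which was not computed for them. Whether the places of such rare miRNAs, for either member, lie beyond counting error was not tested. With miR-222-5p as the reference, miR-221-5p was the fourth, behind miR-493-5p (SD 0.0534), miR-412-5p (0.0562) and miR-1262 (0.0598), and ahead of miR-589-5p (0.0617). The median over the 279 miRNAs was 0.332 in this case. miR-377-5p and miR-493-5p are encoded on chromosome 14, so parallel counts were not limited to miRNAs of the same locus.

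Among all 39060 pairs of detected miRNAs, 0.525% had an SD no larger than that of miR-221-5p and miR-222-5p. Many of these pairs hold miRNAs with far fewer counts, whose ratios carry more counting error. A share among pairs of similar counts was not computed. The place of the partner depended on the libraries used. Without replicate 1, miR-222-5p was the sixth for miR-221-5p and miR-221-5p the 22nd for miR-222-5p. Without replicate 4 they were the seventh and the 12th. Without replicate 3, miR-221-5p was the seventh for miR-222-5p, and without replicate 2 it was the second. When each library had to hold 1000 counts or more of a miRNA, miR-222-5p was the first of 132 for miR-221-5p, and miR-221-5p was the second of 132 for miR-222-5p. A line was fitted in each library to the level against hairpin GC content (242 miRNAs), and no error of its slope was computed. The log2 level, relative to its mean over the libraries, changed by -0.0171 per percent of GC in replicate 1. In replicates 2 to 4 it changed by 0.00361, 0.00358 and 0.00994. Because levels were taken relative to their mean, the slopes balance over the libraries, so these values together mirror that of replicate 1. With this linear trend removed, the SD of the pair was 0.0644 and each member was the second for the other, out of 241. These 241 are miRNAs with a matched hairpin, and miR-412-5p was not among them.

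**Figure D4:**
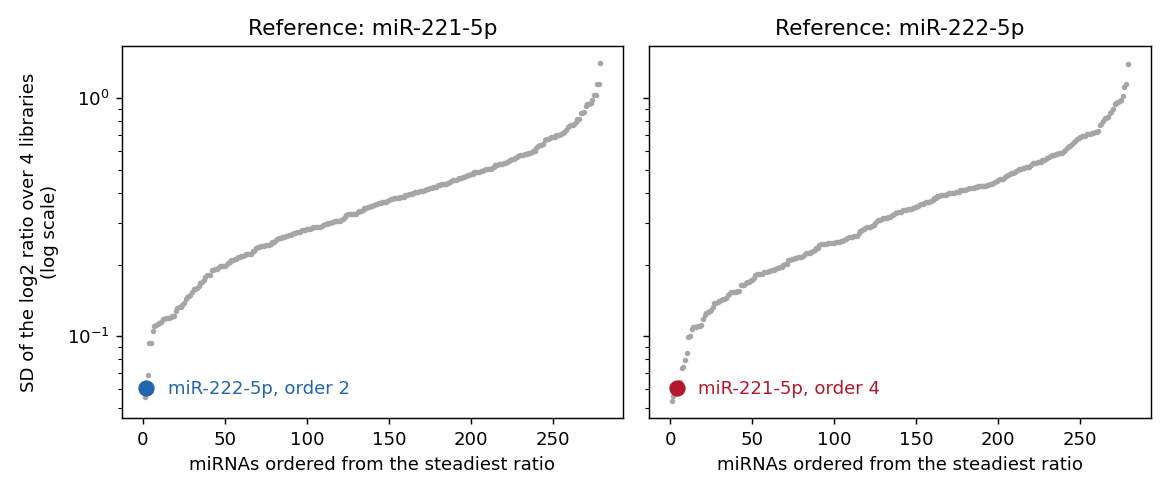
SD of the log2 ratio over 4 libraries (log scale) between a reference member and each of 279 other detected miRNAs (points), ordered from the smallest. miR-222-5p (blue) is the second for miR-221-5p, and miR-221-5p (red) is the fourth for miR-222-5p, both with 0.0605.

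The pair was then set beside other miRNAs with neighbouring hairpins, defined as hairpins on the same strand with at most 10 kb between them. Of the detected miRNAs, 92 formed 169 such pairs, of which 109 lie on chromosome 14. The SD of the log2 ratio had a median of 0.327 over these pairs, and that of miR-221-5p and miR-222-5p was the third smallest. Some of the pairs hold names with few counts, whose ratios carry more counting error, or names with more than 1 hairpin gene. With at least 100 counts in every library the pair was at place 3 of 148. With only names of 1 hairpin gene, a setting chosen after seeing the data, it was at place 3 of 138. The pairs ahead of it were miR-376a-2-5p with miR-376a-5p (0.0278), 1 of the 6 pairs with an identical 3p arm, and miR-382-5p with miR-487b-5p (0.0466). Outside chromosome 14, it was the smallest of 60, with a median of 0.363. The place rested on replicate 1, without which the pair was the 28th of 174. It was the eighth without replicate 3 or without replicate 4. The members of a pair of neighbouring hairpins differed by a median of 2.29 on the log2 scale, and miR-221-5p and miR-222-5p by 3.19.

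**Figure D5:**
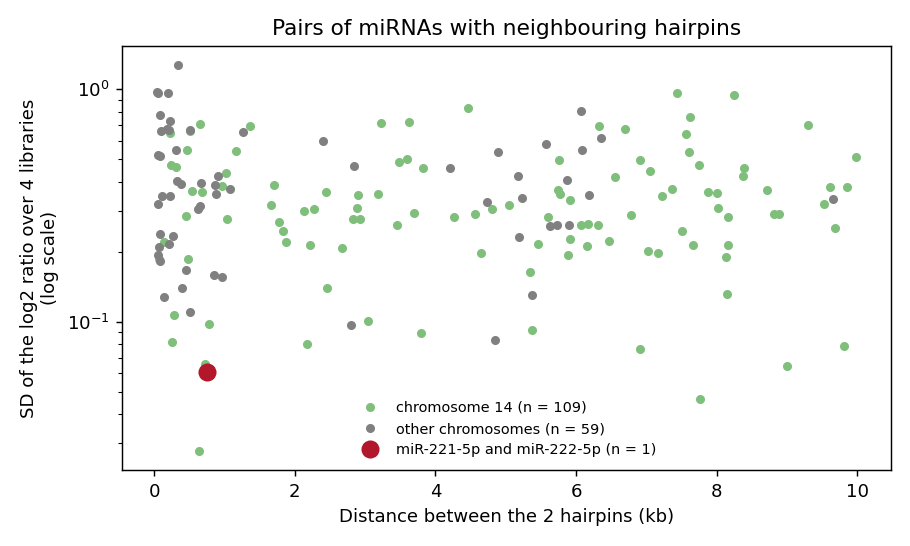
SD of the log2 ratio over 4 libraries (log scale) against the distance between the hairpins (kb) for 169 pairs of detected miRNAs, on chromosome 14 (green), on other chromosomes (grey) and for miR-221-5p with miR-222-5p (red). The red point, at 0.0605, has 2 points below it.

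Among the names with RefSeq hairpins only on chromosome X, miR-221-5p was the most abundant. Let-7f-5p, at a mean share of 3.03%, has hairpins on chromosomes 9 and X and was not counted there. The 44 names whose RefSeq hairpins all lie on chromosome X held 4.38% ± 0.575 (SD, n = 4) of the counts, and miR-221-5p made up 53.9% of this and miR-222-5p 5.87%. Between them stood miR-92a-2-5p with a mean share of 0.844%, a name that has the same 3p arm as miR-92a-1-5p on another chromosome, and miR-361-5p with 0.420%. miR-98-5p, a relative of Let-7, came next with 0.121%.

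Other miRNAs known to be high in glioblastoma gave a scale for the pair. The 7 listed had a median share of 0.428%, which is the mean of miR-182-5p, a name with 1.71% in replicate 1 and blanks in the other libraries. Without replicate 1 the median was 0.325%. The mean of miR-21-5p (3.07% ± 1.66; SD, n = 4) lay above that of miR-221-5p, but it rested on replicate 1, with 5.55% there and 2.09% to 2.40% elsewhere. miR-21-5p was higher than miR-221-5p in 2 of 4 libraries (mean log2 ratio 0.27 ± 0.78), and without replicate 1 the order of the means turned, with 2.24% against 2.45%. miR-93-5p (1.52% ± 0.150), miR-196a-5p (1.04% ± 0.124) and miR-155-5p (0.324% ± 0.0225) lay between the members, whereas miR-10b-5p (0.0435% ± 0.0195) and miR-17-5p (0.0229% ± 0.000783) lay below both.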

How the data were processed

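miR-seq counts of 4 biological replicates of U-251 cells were analysed. The authors used Trimmomatic for adaptors, removed reads above 27 bases, aligned to hg38 with Bowtie and obtained counts from miRDeep2. The deposited values are unnormalized and were handled as estimated counts, since 40 names have values more than 0.001 away from a whole number. The miRNA annotation release and the handling of molecular identifiers are not given in the sources used here. Blank cells were set to 0, and neither member had a blank.

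Shares, ranks and ratios came from Python 3.11.15 with scipy 1.17.1, numpy 2.4.6 and pandas 2.3.3, figures from matplotlib 3.10.9 and hairpin folds from RNAfold 2.7.2. Counts were rounded for the factors of edgeR 4.0.16 and DESeq2 1.42.0 (R 4.3.3). Hairpins were matched by name for 710 of the 746 names. Ratio spreads and Dixon's ratio were tested on simulated data. No test between conditions was run. The members and lists were chosen with earlier results of these data known. Named miRNAs are the members, for each the 5 with the steadiest ratio, its 3 neighbours in rank on each side, and the lists of markers and glioblastoma miRNAs. A further list is not reported here. Names of other hairpin pairs, of pairs with a shared 3p arm and of chromosome X were added after their values were seen. Alternatives covered scaling, denominator, count minimum, pseudocount, hairpin distance and each replicate left out.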

Additional observations from a re-analysis of the deposited data

Results flagged for a closer look

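In 3 of 27 shares and ratios, 1 library lay far from the rest and exceeded the critical value of Dixon's ratio, where chance gives about 1.35. The share of flagged values equals the 11.1% found over the detected miRNAs. Neither member, their sum nor their ratio was among them. miR-21-5p had a ratio of 0.911, with 5.55% in replicate 1 against 2.09% to 2.40% elsewhere. miR-182-5p had 1.0, which the blanks in replicates 2 to 4 fix, beside its 1.71% in replicate 1. Let-7c-5p had 0.863, with 3.22% in replicate 4 against 2.62% to 2.71% elsewhere.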

How the results depend on the processing

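Apart from leaving out replicates, 42 alternatives over 10 results were run. The limit was the spread of a value, or 1.5-fold for a place and for the SD of the log2 ratio. In 35 alternatives the result stayed within this limit, and in 7 it moved further. Some of the 35 were fixed in advance. The count minimum cannot change the SD of the log2 ratio, and removing the GC trend cannot change its mean. Only the mean log2 ratio could have reversed its direction, and it did not. With the Let-7 names left out of the total, the shares of miR-221-5p, miR-222-5p and their sum were 6.29%, 0.688% and 6.98%, which follows from the smaller total. With at least 1000 counts in every library, miR-222-5p was at place 1 for miR-221-5p and miR-221-5p at place 2 for miR-222-5p, fewer miRNAs being compared. The next 2 settings were chosen after seeing the data. With the GC trend removed, the latter was also at place 2. Only miRNAs with a matched hairpin were compared there, which left out miR-412-5p. How far the trend itself moved the place was not tested. Without chromosome 14, the pair was at place 1 among neighbouring hairpins, because the pairs ahead of it lie there.

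Leaving out 1 replicate gave 2.17% to 2.48% for miR-221-5p, 0.242% to 0.268% for miR-222-5p and 3.17 to 3.21 for the mean log2 ratio. The SD of the log2 ratio ranged from 0.0355 to 0.0732. The place of miR-222-5p for miR-221-5p ranged from 3 to 7, that of miR-221-5p for miR-222-5p from 2 to 22, and that of the pair among neighbouring hairpins from 3 to 28, the highest values of the last 2 without replicate 1. Rank 10 of miR-221-5p became rank 8 without replicate 1. No paired analysis was possible because a single group was sequenced. With 4 libraries an exact sign-flip test could not go below p = 0.13, and the places in the order of ratio spread rest on 3 degrees of freedom each.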
